A study of Sus scrofa with 15 samples.

Results

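WFDC2 (ENSSSCG00000033003) and CLU (ENSSSCG00000009668) are 2 of the 16660 pig genes in the count table of this experiment, and both passed the filter that left 11553 genes for testing. They were selected on their measured levels, which earlier results of these data had shown above the control, WFDC2 in cells given Tg1 and CLU in cells given Tg1, Tg2 or Tg3. Those 4 comparisons are therefore described here with no test.

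WFDC2, also called HE4, is a small secreted protein with whey acidic protein domains, a fold shared with some secreted protease inhibitors. It is raised in the serum of patients with kidney fibrosis. CLU encodes clusterin, a secreted glycoprotein that works as an extracellular chaperone, travels with lipoproteins, restrains the terminal steps of complement and is taken up by endocytic receptors such as megalin. In the kidney, clusterin is made by stressed tubular epithelium and is measured in urine as a marker of tubular injury.

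The cells were LLC-PK1, a line of pig renal proximal tubule epithelium, grown in medium with 3% fetal bovine serum and transiently transfected with 3 µg of plasmid. The empty plasmid was the control (NC), and the other plasmids carried human PKD2, the gene for the calcium-permeable channel polycystin-2, with a FLAG tag behind the CAG promoter: wild type (WT), Tg1 (A1532T in the DNA, D511V in the protein), Tg2 (T1967G, L656W) and Tg3 (C2224T, R742X, a stop codon ahead of the C-terminal tail and the tag). RNA was isolated 48 h after transfection from 3 wells per plasmid, which gave 15 libraries. All wells held the same line in the same experiment, so a p-value measures the spread between wells. With the PKD2 plasmids, the pig genes were measured in cells given a human gene behind a strong promoter. The authors detected the tagged protein by Western blot for WT, Tg1 and Tg2, but the Tg3 protein lacks the tag and could not be seen that way.

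The libraries held 20216200 to 26132196 counts. Levels are given as CPM, the counts put on a common library size, after scaling by edgeR's TMM method, and a value with ± is a mean with its SD over n = 3 libraries. Differences are log2 fold changes with their standard error (SE), tested by edgeR's quasi-likelihood method with adjustment over all genes. Between replicates of a plasmid, chi-square divided by its degrees of freedom lay between 2.90 and 46.6, above the value of about 1 that counting noise gives, and it was highest for WT replicates 2 and 3. Of the 16 proximal tubule markers in the table, 15 had a mean of at least 2 CPM, among them LRP2 (megalin) and CUBN (cubilin), whereas MME had a mean of 0.0645 CPM. Markers of other nephron segments were present too. Among those of the collecting duct the means were 231 CPM for ATP6V1B1, 9.24 CPM for AQP3 and 0.548 CPM for SCNN1B. Those of the thick ascending limb and distal tubule were 12.2 CPM for SLC12A1, 0.384 CPM for SLC12A3 and 0.138 CPM for UMOD. The endothelial markers summed to at most 1.86 CPM in a library. Among the 4 leukocyte markers the means were 0.0167 CPM for PTPRC, 2.34 CPM for CD68, 21.7 CPM for AIF1 and 20.5 CPM for CD3E. Among the fibroblast markers COL1A2 was at 923 CPM on average, while COL1A1 was at 0.842 CPM and PDGFRB and LUM were close to 0.

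WFDC2 was highest in Tg1 and differed little between wells. Its level was 854, 848 and 871 CPM in the NC libraries (replicates 1 to 3) and 895, 953 and 860 CPM in the WT libraries. The Tg1 libraries had 1049, 1052 and 1007 CPM, the Tg2 libraries 979, 933 and 952 CPM, and the Tg3 libraries 892, 865 and 870 CPM. Every Tg1 library was above every library of the other 4 plasmids, and the Tg2 libraries were all above those of NC and Tg3. WT replicate 2 was within the range of Tg2, whereas WT replicate 3 was within that of NC. The gene held between 17115 and 26701 counts per library, or 0.0847% to 0.106% of the total.

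CLU was highest in Tg2 and spread more widely. It was at 3656, 4303 and 3524 CPM in the NC libraries and at 3963, 5129 and 3870 CPM in the WT libraries. In the mutants it was at 4641, 5208 and 5156 CPM (Tg1), 5910, 5610 and 4958 CPM (Tg2) and 4771, 5228 and 4622 CPM (Tg3). All 9 libraries of the mutants lay above the 3 of NC, and the ranges of the 3 mutants overlapped one another. WT replicate 2 stood among the mutants, while the other two WT libraries were lower than every mutant library. CLU held between 82950 and 132197 counts per library, or 0.365% to 0.561% of the total.

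**Figure D1:**
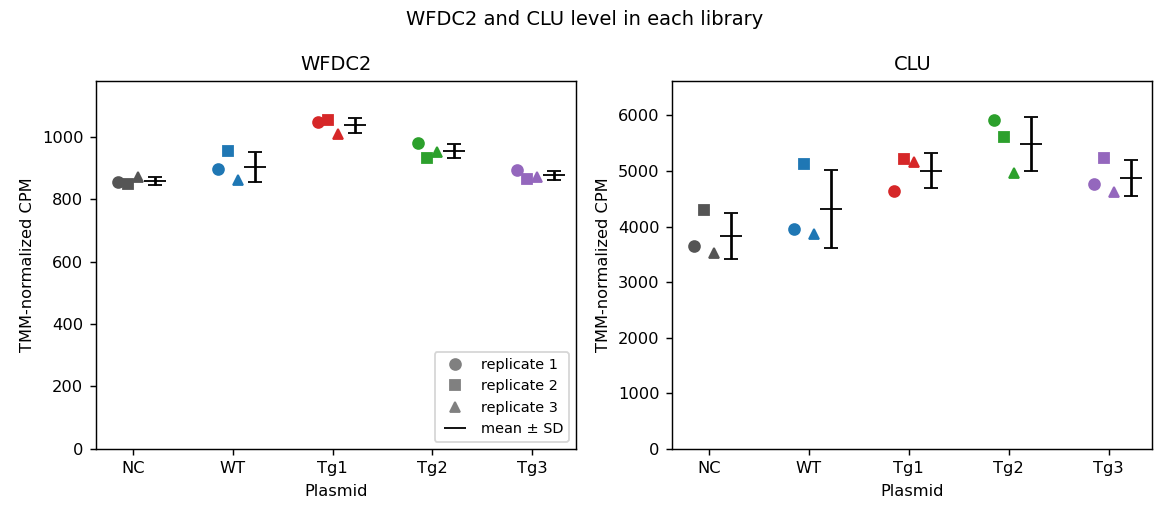
TMM-normalized CPM of WFDC2 (left) and CLU (right) on linear axes from 0, by plasmid. Each symbol is a library, with its shape giving the replicate number, and the black bars are the mean ± SD of 3 libraries; the Tg1 libraries stand above all others for WFDC2, and the 9 mutant libraries stand above the 3 NC libraries for CLU.

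In the comparison with the empty plasmid, the question was what PKD2 of each genotype did to the cells. WFDC2 averaged 858 ± 12.4 CPM in NC and 1036 ± 25.0 CPM in Tg1. The log2 fold change was 0.27 (SE 0.04), which lies just above the threshold of 0.26 that was used for calls. This is the comparison that chose the gene. A call needed that fold together with an adjusted p-value up to 0.05. Of all genes tested, 0.182% were called higher in Tg1, 1.19% were called in either direction and 11.9% had Tg1 libraries that were all above those of NC.

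In Tg2, WFDC2 was at 954 ± 23.0 CPM, with a log2 fold change of 0.15 against NC (SE 0.04, edgeR adjusted p = 0.0266). The adjusted p-value was under the threshold but the fold was not, so the gene was not called in Tg2, where 4.73% of the genes were called higher. Also, the test shares the NC libraries with the comparison that chose the gene. The libraries of Tg2 and NC did not overlap (exact permutation test, two-sided, p = 0.1, the smallest that 3 against 3 allows), as was so in this direction for 17.5% of all genes. In Tg3 the level was 876 ± 14.5 CPM, with a log2 fold change of 0.03 (SE 0.04, edgeR adjusted p = 0.695). In WT it was 903 ± 46.9 CPM, with a log2 fold change of 0.07 (SE 0.04, edgeR adjusted p = 1.00). The 95% intervals of these log2 fold changes were -0.05 to 0.11 for Tg3 and -0.01 to 0.16 for WT.

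CLU was at 3828 ± 417 CPM in NC. Its log2 fold change against NC was 0.39 in Tg1 (5002 ± 313 CPM), 0.52 in Tg2 (5493 ± 486 CPM) and 0.35 in Tg3 (4874 ± 316 CPM), each with a standard error of 0.10, and these are the comparisons that chose the gene. Genes whose libraries lay wholly above NC made up 11.9% of all genes in Tg1, 17.5% in Tg2 and 13.4% in Tg3. No gene of the 11553 was called in Tg3 (0% called) by edgeR, although 2089 had an unadjusted p-value under 0.05 and DESeq2 called 52. In WT, CLU was at 4321 ± 701 CPM, and the log2 fold change of 0.17 (SE 0.10, 95% interval -0.05 to 0.40) was not called (edgeR adjusted p = 1.00). Without WT replicate 2 the difference between WT and NC fell to 0.03, but that fit kept NC replicate 2, the highest NC library. With replicate 2 left out of both, the mean levels were 3917 CPM in WT and 3590 CPM in NC. Replicate 2 was also the highest library for CLU in Tg1 and Tg3, though not in Tg2. edgeR called 0 genes in WT against NC (0% called), where 524 genes had an unadjusted p-value under 0.05 and DESeq2 called 11.

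The levels of CLU moved with the scaling factor of the libraries. The TMM factor ranged from 1.00 to 1.04 in NC, 0.987 to 1.04 in WT, 0.985 to 1.01 in Tg1, 0.951 to 0.994 in Tg2 and 0.981 to 1.00 in Tg3. Over the 15 libraries it had a Pearson correlation of -0.953 (Spearman -0.968) with CLU and of -0.451 (Spearman -0.482) with WFDC2, both on the log2 scale, and with the group means removed these were -0.967 and -0.421. The factor enters the CPM itself, so these values are a description. In plain CPM, with no such factor, CLU in Tg1, Tg2 and Tg3 still lay above NC without overlap, with log2 ratios of the means of 0.35, 0.44 and 0.31. WFDC2 in Tg1 also stayed above NC without overlap, with a log2 ratio of 0.23, but in Tg2 it overlapped with NC (0.08), and in Tg3 the sign turned (-0.01).

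Setting the mutants against WT PKD2 asks what the mutation adds to the overexpressed protein. WFDC2 was higher in all 3 Tg1 libraries than in the WT libraries, with a log2 fold change of 0.20 (SE 0.04), but it was not called (edgeR adjusted p = 0.0772), and the Tg1 libraries are those that chose the gene. In that comparison 0.0692% of all genes were called, all of them lower, and 8.45% lay higher without overlap. Tg2 differed from WT by 0.08 (95% interval -0.00 to 0.16, edgeR adjusted p = 0.160) and Tg3 by -0.04 (95% interval -0.13 to 0.04, edgeR adjusted p = 0.530), and in both the libraries overlapped with those of WT.

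CLU had a log2 fold change of 0.35 in Tg2 against WT (SE 0.10, 95% interval 0.12 to 0.57), just outside the threshold (edgeR adjusted p = 0.0517), where 3.31% of the genes were called higher. WT replicate 2, at 5129 CPM, was the library that overlapped with Tg2. Without it the log2 fold change was 0.49 (edgeR adjusted p = 0.00198), and DESeq2 on all libraries also called the gene (0.35, adjusted p = 0.0206). Leaving out NC replicate 2 or Tg2 replicate 3 likewise brought the call, with log2 fold changes of 0.35 and 0.41. The log2 fold changes against WT were 0.21 in Tg1 (edgeR adjusted p = 0.348) and 0.17 in Tg3 (edgeR adjusted p = 0.350). Without WT replicate 2 they were 0.35 and 0.32, and both were called (edgeR adjusted p = 0.0261 and 0.0287). No other of the 15 fits with a library left out, and none of the 8 other settings, called CLU in Tg1 or Tg3 against WT. The mutant libraries in all these tests are the ones that chose CLU.

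Between the mutants, neither WFDC2 nor CLU was called in any of the 3 comparisons. The comparisons of WFDC2 with Tg1 rest on the levels that chose the gene, so their p-values are not independent of that choice and support nothing here. WFDC2 in Tg3 against Tg1 had a log2 fold change of -0.24 (SE 0.04, edgeR adjusted p = 0.0152), under the fold threshold, with no overlap between the libraries. Without Tg1 replicate 3 the value was -0.26 and the gene was called (edgeR adjusted p = 0.0167). In this comparison 0.0606% of the genes were called lower and 11.8% lay lower without overlap. Tg2 against Tg1 gave -0.12 (edgeR adjusted p = 0.141) and Tg3 against Tg2 gave -0.12 (edgeR adjusted p = 0.822), each with no overlap, as for 11.2% and 5.46% of the genes in this direction, but neither passed the test. For CLU, Tg2 against Tg1 gave 0.14 (edgeR adjusted p = 0.474), Tg3 against Tg1 gave -0.04 (edgeR adjusted p = 0.910) and Tg3 against Tg2 gave -0.17 (edgeR adjusted p = 0.822), and the libraries overlapped in each. The 95% intervals of these differences in CLU were -0.09 to 0.36, -0.26 to 0.19 and -0.40 to 0.05.

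**Figure D2:**
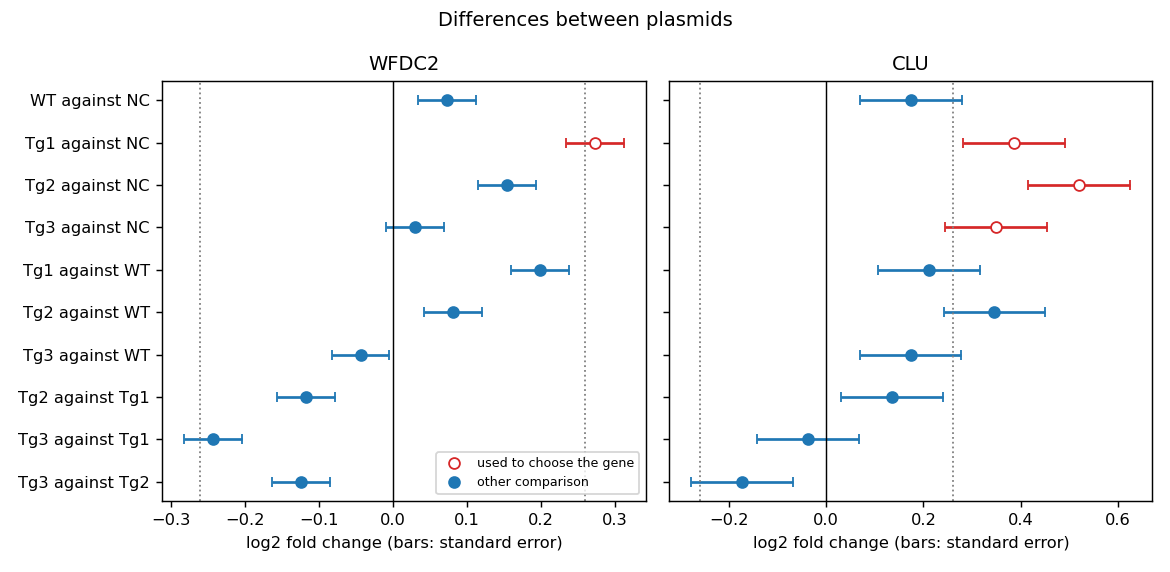
log2 fold change of WFDC2 (left) and CLU (right) in the 10 comparisons between plasmids, with bars for the standard error and dotted lines at the fold threshold of 0.26 in either direction. Open red circles are the comparisons that chose the gene, and the scales of the panels differ; WFDC2 has its largest values where Tg1 is compared, while CLU is above 0 in all mutants against NC and WT.

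The order of the means was therefore NC, Tg3, WT, Tg2, Tg1 for WFDC2 and NC, WT, Tg3, Tg1, Tg2 for CLU. Between neighbours in the order of WFDC2, the libraries overlapped for NC and Tg3, for Tg3 and WT and for WT and Tg2, and only Tg2 and Tg1 were apart. Between neighbours in the order of CLU, all 4 pairs overlapped. Over the 15 libraries the log2 levels of the genes had a Pearson correlation of 0.584 and a Spearman correlation of 0.575, of which the comparisons that chose the genes fix a part, so no p-value is given. With Tg1 replicates 1 and 2 left out, which are the libraries farthest from the median of WFDC2, the Pearson correlation was 0.692, whereas in plain CPM it was 0.309 with all libraries.

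Within plasmids, which the choice of the genes did not use, the deviations of WFDC2 and CLU from their group means had a Pearson correlation of 0.411 (permutation p = 0.417, adjusted p = 0.556) and a Spearman correlation of 0.229 (permutation p = 0.549, adjusted p = 0.605), with libraries permuted within plasmids and adjustment over 4 relations. Without WT replicates 2 and 3 the Pearson correlation was -0.172 (permutation p = 0.621), so the positive value rests on those libraries, and without WT replicate 2 alone it was -0.164.

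SPP1, the gene of osteopontin, followed CLU most closely of all genes with a symbol. By Pearson correlation over the 15 libraries, the nearest were SPP1 (0.995), TIMP1 (0.972), SLA-DMA (0.972), PSMB4 (0.971) and BRD2 (0.970). Osteopontin is a secreted phosphoprotein of injured tubules. TIMP1 is a secreted inhibitor of matrix metalloproteinases, SLA-DMA a chaperone of peptide loading on class II histocompatibility molecules, PSMB4 a subunit of the proteasome and BRD2 a reader of acetylated histones. The lowest values were those of CDK14, a cyclin-dependent kinase (-0.977), and PEG10, a gene derived from a retrotransposon (-0.971).

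SPP1 had 9264, 10587 and 8937 CPM in NC, 9829, 11687 and 9709 CPM in WT and 13238, 12407 and 11306 CPM in Tg2, with replicates in the same order as for CLU in each of these plasmids. With the group means removed, the correlation with CLU was still 0.991 for SPP1 and 0.990 for TIMP1. TIMP1 was at 138, 198 and 127 CPM in the WT libraries, replicate 2 again being the highest. CLU had a correlation above 0.9 with 483 of the other 11552 genes and below -0.9 with 179, so a close fit to CLU was common in these libraries. They share their sequencing, scaling and cell line, and a correlation across them does not speak of function or control.

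WFDC2 had no such company. The nearest genes were KIF12, a kinesin (0.893), SSR2, a subunit of the translocon-associated complex of the endoplasmic reticulum (0.886), NUCB1, a calcium-binding protein of the Golgi (0.885), MIF, a secreted cytokine (0.885), and SERTAD3 (0.884). The lowest were PRKAR2A, a regulatory subunit of protein kinase A (-0.943), and KBTBD3 (-0.938). None of the 11552 genes was above 0.9 with WFDC2, and 15 were below -0.9. KIF12 was at 96.6, 95.2 and 97.3 CPM in Tg1 and 81.8, 84.1 and 84.2 CPM in NC. PRKAR2A had a mean of 77.1 CPM in NC, 59.9 CPM in Tg1, 67.5 CPM in Tg2 and 73.7 CPM in Tg3. With the group means removed, the correlation with WFDC2 was 0.125 for KIF12 and -0.605 for PRKAR2A.

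**Figure D3:**
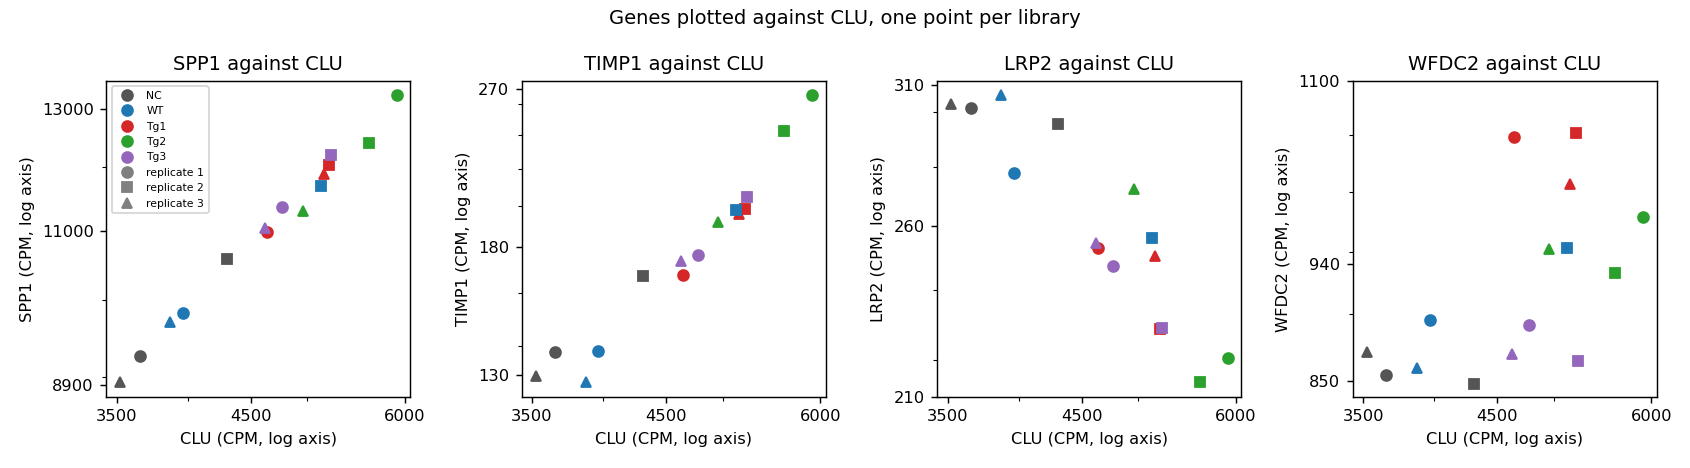
Levels of SPP1, TIMP1, LRP2 and WFDC2 (CPM, log axes) against that of CLU (CPM, log axes), with a point for each of the 15 libraries, colours for plasmids and shapes for replicate numbers. SPP1 and TIMP1 follow CLU closely, LRP2 runs against it, and WFDC2 is scattered, with the Tg1 libraries above the rest.

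Other markers of tubular injury were followed as a list of 41 genes, of which 33 were in the table and 24 were tested. HAVCR1, which encodes the injury molecule KIM-1, was not analysed here. In Tg2, 7 of the 24 were called higher than in NC and 0 lower, beside 4.73% and 3.7% of all genes, and the median log2 fold change was 0.27 against -0.01 for all genes. They were SOX9, SPP1, TIMP1, HBEGF, VCAM1, LCN2 and PLAUR. In WT, Tg1 and Tg3 none of the 24 was called by edgeR, with medians of 0.06, 0.12 and 0.11, while 0%, 1.19% and 0% of all genes were called in either direction. At an unadjusted p-value under 0.05 there were 4, 6 and 5 of them, beside 4.54%, 19.9% and 18.1% of all genes. DESeq2 called 1, 1 and 0 of them. Against WT, Tg2 had 3 of the 24 called higher (TIMP1, CD44 and VCAM1), beside 3.31% of all genes. That count was 0 without WT replicate 1, WT replicate 3, Tg2 replicate 1 or Tg2 replicate 2, was 1 without NC replicate 1, Tg1 replicate 2 or Tg3 replicate 1, and rose to 12 without WT replicate 2 and to 8 without Tg2 replicate 3.

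The transcription factor SOX9, which marks regenerating tubules, rose in Tg2 to 68.6 ± 12.2 CPM against 41.6 ± 3.50 CPM in NC, a log2 fold change of 0.72 (edgeR adjusted p = 0.0142). The adhesion molecule VCAM1 rose by 1.27 (edgeR adjusted p = 0.0302), TIMP1 by 0.69 (edgeR adjusted p = 0.0210) and SPP1 by 0.36 (edgeR adjusted p = 0.0210) on the log2 scale. LCN2, the iron-siderophore carrier NGAL used as a urine test of acute kidney injury, was at 28.4, 32.1 and 31.0 CPM in NC and 42.7, 37.8 and 35.7 CPM in Tg2, a log2 fold change of 0.34 (edgeR adjusted p = 0.0456). The calls in Tg2 depended on the libraries included, since 0 of the 24 markers were called without NC replicate 1, NC replicate 3, Tg2 replicate 1 or Tg2 replicate 2. LCN2 lost its call in 10 of the 15 cases in which a library was left out, among them libraries of WT, Tg1 and Tg3. Proximal tubule markers summed to 2016 to 2170 CPM in the NC libraries and 1717 to 1986 CPM in those of Tg2. The sums were 1746 to 1909 CPM in Tg3, 1900 to 2055 CPM in Tg1 and 1923 to 2172 CPM in WT. In these 3 plasmids edgeR called none of the 24 injury markers. The part of the proximal tubule markers in the differences of CLU and the injury markers was not tested.

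A list of 33 secreted protease inhibitors held genes with whey acidic protein domains, as in WFDC2, and inhibitors of other families, such as SERPING1 and TIMP1. Of these 33 genes, 12 were tested. In Tg2, 2 of them were called higher than in NC and 0 lower, namely SERPING1 and TIMP1, beside 4.73% and 3.7% of all genes, and both calls were lost without NC replicate 1, NC replicate 3, Tg2 replicate 1 or Tg2 replicate 2. SERPING1, the C1 inhibitor of complement and contact activation, rose to 581 ± 87.1 CPM against 338 ± 48.7 CPM, with a log2 fold change of 0.78 (edgeR adjusted p = 0.0213). The median over the list was -0.02 in Tg2 and 0.06 in Tg1. No member was called in Tg1, Tg3 or WT by edgeR or DESeq2. In these plasmids 3, 4 and 2 had an unadjusted p-value under 0.05, beside 19.9%, 18.1% and 4.54% of all genes. Among other genes with whey acidic protein domains, WFDC1 had log2 fold changes of 0.06 in Tg1 (edgeR adjusted p = 0.679) and -0.04 in Tg2 (edgeR adjusted p = 0.780), and EPPIN 0.03 (edgeR adjusted p = 0.940) and -0.24 (edgeR adjusted p = 0.343). SLPI, the secretory leukocyte protease inhibitor, ranged from 0.0918 to 0.653 CPM and WFDC5 had a mean of 0.0197 CPM, so neither was tested.

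Complement, which clusterin restrains at its terminal steps, was represented by 29 genes, of which 8 were tested. In Tg2, 4 of these were called higher than in NC and 0 lower, beside 4.73% and 3.7% of all genes, and the median log2 fold change was 0.55. C4A rose by 1.38 (edgeR adjusted p = 0.0256), C2 by 1.26 (edgeR adjusted p = 0.0297) and C3 by 0.37 (edgeR adjusted p = 0.0220) on the log2 scale, beside SERPING1. C2, a protease of the classical pathway, was at 29.0, 41.4 and 21.7 CPM in NC and 88.1, 80.0 and 52.1 CPM in Tg2. C3, the component on which all complement pathways meet, had a correlation of 0.950 with CLU over the libraries and of 0.381 with WFDC2. The medians of the list were 0.30 in Tg1, 0.40 in Tg3 and 0.06 in WT. No member was called in these plasmids by edgeR or DESeq2. An unadjusted p-value under 0.05 was found for 2, 4 and 0 members, beside 19.9%, 18.1% and 4.54% of all genes. Without NC replicate 1, NC replicate 3, Tg2 replicate 1 or Tg2 replicate 2, 0 of the 8 were called in Tg2 against NC. Against WT, C2, C4A and SERPING1 were called higher in Tg2, beside 3.31% of all genes. That count was 0 without NC replicate 1, WT replicate 1, WT replicate 3, Tg1 replicate 2, Tg2 replicate 1, Tg2 replicate 2 or Tg3 replicate 1, was 1 without NC replicate 3, Tg1 replicate 3 or Tg3 replicate 3, and was 6 without WT replicate 2 and 5 without Tg2 replicate 3. The genes of C4 have near-identical copies in many mammals, and quantification by transcript can split reads between them, so the value of C4A is uncertain.

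The receptors that take up clusterin and its lipoprotein partners were 27 genes with 12 tested. Against NC, Tg2 had 0 called higher and 3 called lower (LRP2, CUBN and DAB2), beside 4.73% and 3.7% of all genes. DESeq2 called 3 in Tg2, 4 in Tg1 and 1 in Tg3, where edgeR called 1 in Tg1 and 0 in Tg3. In Tg3, 3 had an unadjusted p-value under 0.05, beside 18.1% of all genes. LRP2, the megalin receptor of the proximal tubule that binds clusterin, was at 301, 295 and 303 CPM in NC and 220, 214 and 272 CPM in Tg2, a log2 fold change of -0.35 (edgeR adjusted p = 0.0233). Its libraries in Tg1 and Tg3 were also all lower than in NC (-0.30 in both), but did not pass the test (edgeR adjusted p = 0.0756 and 0.158). CUBN, the partner of megalin, had a log2 fold change of -0.33 in Tg2 (edgeR adjusted p = 0.0266), and so had DAB2, an adaptor of the same endocytic complex (edgeR adjusted p = 0.0254). These 3 calls too were lost without NC replicate 1, NC replicate 3, Tg2 replicate 1 or Tg2 replicate 2.

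LRP6, a co-receptor of Wnt signalling from the same list, was at 34.5 ± 1.94 CPM in Tg1 and 45.3 ± 2.74 CPM in NC and was called lower, as were 1.01% of all genes, with a log2 fold change of -0.39 (edgeR adjusted p = 0.00518), and it was also called lower than in WT (-0.33, edgeR adjusted p = 0.0258), as were 0.0692% of all genes. The call against NC held without each of the 15 libraries, whereas that against WT was lost in 9 of the 15 cases (NC replicates 1 and 3, WT replicates 1 and 3, any Tg1 replicate, Tg3 replicates 1 and 3) and without all replicate 2 libraries. It had a correlation of -0.892 with WFDC2 over the libraries and of -0.488 with CLU.

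**Figure D4:**
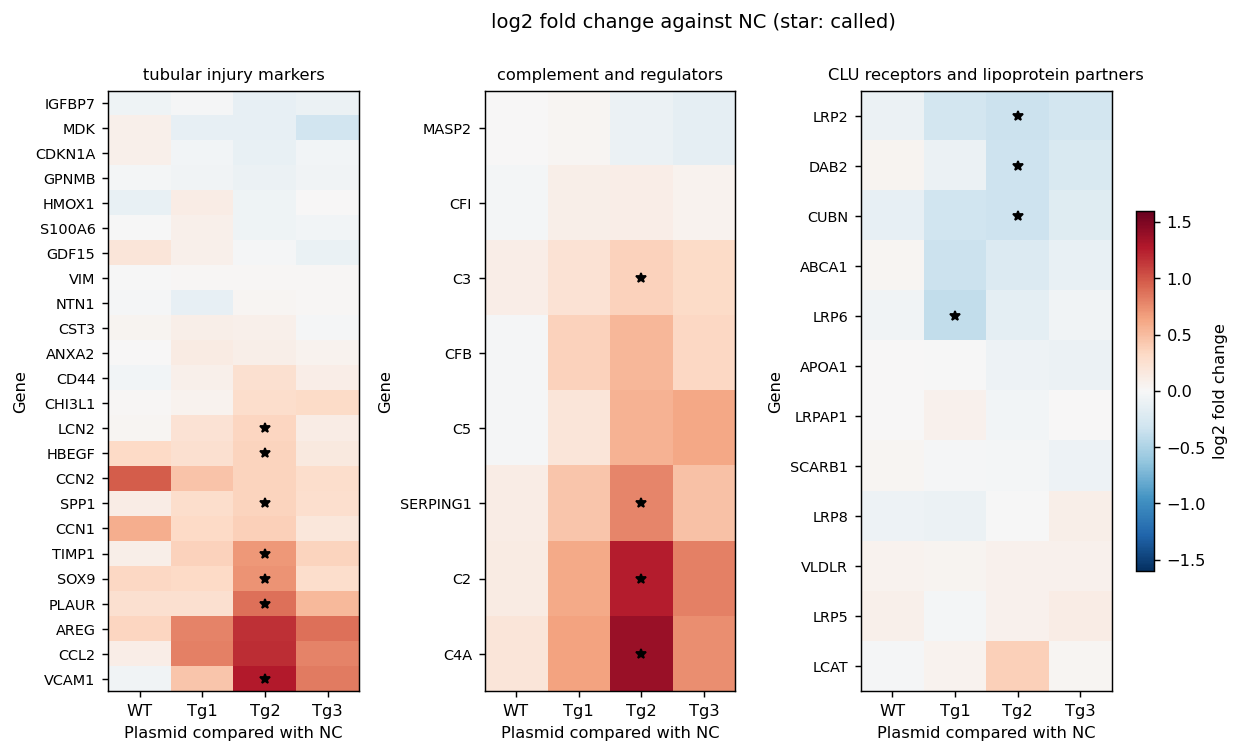
Heat maps of the log2 fold change against NC for the tested members of 3 lists, with a row for each gene, ordered by its value in Tg2, and a column for each PKD2 plasmid. Red is higher and blue lower than in NC, and a star marks a call by edgeR; all stars but that of LRP6 in Tg1 are in the Tg2 columns.

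Secreted proteins are folded in the endoplasmic reticulum, and 29 of 32 listed genes of folding and the unfolded protein response were tested. Tg2 had 5 called higher than in NC and 0 lower (PPP1R15A, ERN1, SEC61A1, XBP1 and HERPUD1), and Tg1 had 1 higher (PPP1R15A, 0.37, edgeR adjusted p = 0.0291), beside 4.73% and 0.182% of all genes called higher. The count in Tg2 was 0 without NC replicate 1, NC replicate 3, Tg2 replicate 1 or Tg2 replicate 2 and 3 without Tg3 replicate 1. PPP1R15A was not called in Tg1 without NC replicate 1, NC replicate 3, Tg1 replicate 2 or Tg1 replicate 3, nor in Tg1 or Tg2 without all replicate 2 libraries. The medians over the list were 0.12 in Tg1, 0.09 in Tg2, 0.03 in Tg3 and -0.004 in WT. At an unadjusted p-value under 0.05 there were 15 in Tg1 and 11 in Tg2, beside 19.9% and 35.2% of all genes. XBP1, a transcription factor of the unfolded protein response, rose by 0.55 in Tg2 (edgeR adjusted p = 0.0353). HSPA5, the chaperone BiP, was at 1008, 1090 and 1022 CPM in NC and 1189, 1266 and 1268 CPM in Tg1, a log2 fold change of 0.25 (edgeR adjusted p = 0.0188) that did not reach the fold threshold. Its correlation over the libraries was 0.734 with WFDC2 and 0.627 with CLU.

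Targets of NF-kB and STAT3, inflammatory factors that act on many injury genes, were the list with the most genes tested (31 of 36) and the most calls. By share in Tg2 against NC the complement list was ahead, at 50% beside 41.9% of these 31 targets. Against NC, 13 were called higher in Tg2 and 3 in Tg1 (JUNB, ZC3H12A and IER3), with none lower, beside 4.73% and 0.182% of all genes called higher, and the medians were 0.40 in Tg2, 0.24 in Tg1, 0.25 in Tg3 and 0.04 in WT. The chemokine gene CXCL8 rose by 0.66 (edgeR adjusted p = 0.0132) and IER3, an immediate early gene, by 0.64 (edgeR adjusted p = 0.00865) on the log2 scale in Tg2. Without the libraries named above the count in Tg2 was 2 (NC replicate 1), 0 (NC replicate 3), 3 (Tg2 replicate 1) or 0 (Tg2 replicate 2), and it was 21 without WT replicate 2 or Tg2 replicate 3 and 20 without WT replicate 3. The 3 calls in Tg1 were lost without any NC replicate, Tg1 replicate 2 or Tg1 replicate 3, and 6 were called without WT replicate 2. edgeR called 0 in Tg3 and WT, where DESeq2 called 3 and 1. An unadjusted p-value under 0.05 was found for 15 and 6, beside 18.1% and 4.54% of all genes. Of 22 tested apoptosis genes, BID was called higher and BMF lower in Tg2, both encoding proteins that promote apoptosis, and this share of 9.09% was near the 8.43% of all genes called in either direction. BID lost its call in 10 and BMF in 7 of the 15 cases in which a library was left out.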

How the data were processed

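Poly(A) RNA of 15 LLC-PK1 wells was sequenced on an Illumina HiSeq instrument. The authors quantified transcripts with Salmon 0.14.1 against the Ensembl release 98 pig cDNA and deposited whole-number counts per gene without normalization; how transcripts were summed to genes is not given in the sources used here. Groups and replicate numbers came from the sample labels. The 11553 of 16660 genes whose mean reached 2 CPM were tested with edgeR 4.0.16 in R 4.3.3 (TMM, quasi-likelihood test, all 15 libraries in 1 model, Benjamini-Hochberg adjustment). A call needed an adjusted p-value up to 0.05 and a log2 fold change of at least 0.26 in size. Standard errors were the log2 fold change divided by the square root of F. Correlations with other genes used log2 of CPM plus 0.5, and that of WFDC2 with CLU used log2 CPM with permutation tests of 100000 resamples.

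WFDC2, CLU and the gene lists were chosen with earlier results of these data known. Named genes were the list members with calls and the smallest adjusted p-values (up to 6 a list), the 5 highest and 2 lowest correlations with each gene, and HAVCR1, LCN2, SPP1, TIMP1, SLPI, LRP2 and HSPA5; others were named after their values were seen. Alternatives were DESeq2 1.42.0, its size factors, other filters, fits of only the groups compared, a replicate-number block, no fold threshold, and libraries left out. Same-numbered WT and NC libraries deviated together (correlations of 0.131 or more, mean 0.412). The main tests did not pair libraries, and the numbers, taken from the labels, entered only as the block among the alternatives. No sequence was used here, and the gene order of the RefSeq annotation served only to find neighbouring genes. Some genes were taken out of the lists after the tests were run and are not reported here.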

Additional observations from a re-analysis of the deposited data

Results flagged for a closer look

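WFDC2 in Tg3 against Tg1 passed the adjusted p-value of a direct test of the difference between these mutants but was not called. The log2 fold change was -0.24 (SE 0.04, 95% interval -0.33 to -0.16, edgeR adjusted p = 0.0152), under the fold threshold of 0.26. The high Tg1 levels are those that chose the gene, so the test is not independent of the choice, and the value is a description.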

How the results depend on the processing

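The log2 fold changes of WFDC2 and CLU kept their direction in all 10 comparisons under every alternative edgeR or DESeq2 fit that was run. No calls were made in the comparisons that chose the genes. Among the others, 2 comparisons of WFDC2 and 3 of CLU changed sides of the thresholds. With no fold threshold, WFDC2 passed in Tg2 against NC (0.15) and in Tg3 against Tg1 (-0.24). CLU in Tg2 against WT was called with DESeq2 (0.35), with the replicate number as a block (0.36) and without all replicate 2 libraries (0.47). Leaving out each library in turn gave -0.26 to -0.23 for WFDC2 in Tg3 against Tg1, and for CLU 0.14 to 0.35 in Tg1 against WT, 0.27 to 0.49 in Tg2 against WT and 0.10 to 0.32 in Tg3 against WT. In plain CPM the correlation of WFDC2 with CLU was 0.309 for levels and -0.251 for deviations, which is a change of sign; leaving out libraries gave 0.533 to 0.667 and -0.164 to 0.550. The counts of called genes moved more. With DESeq2 they were 11 (WT against NC), 244 (Tg1 against NC), 52 (Tg3 against NC), 77 (Tg1 against WT), 1184 (Tg2 against WT), 116 (Tg3 against WT), 162 (Tg2 against Tg1) and 139 (Tg3 against Tg1). With the replicate block they were 246 (Tg1 against NC), 1624 (Tg2 against NC), 11 (Tg3 against NC), 66 (Tg1 against WT), 1578 (Tg2 against WT), 111 (Tg3 against WT), 162 (Tg2 against Tg1) and 108 (Tg3 against Tg1), and the lists in Tg2 against NC had 21 NF-kB and STAT3 targets and 6 apoptosis genes called. Same-numbered libraries deviated together in every pair only for WT and NC, where the block called 0 genes and changed no call. In the other comparisons at least 1 same-numbered pair had a correlation of 0.1 or less. Without all replicate 2 libraries the counts were 6 (WT against NC), 19 (Tg1 against NC), 34 (Tg1 against WT), 1832 (Tg2 against WT), 1 (Tg3 against WT), 0 (Tg2 against Tg1) and 0 (Tg3 against Tg1), with 1 receptor or lipoprotein partner and 5 apoptosis genes in Tg2 against NC. Without a fold threshold they were 264 (Tg1 against NC), 1643 (Tg2 against NC), 1099 (Tg2 against WT) and 118 (Tg3 against Tg1), with 8 endoplasmic reticulum and 5 apoptosis genes in Tg2 against NC. Fits of only the groups compared gave 0 (Tg1 against WT), 0 (Tg2 against WT), 0 (Tg2 against Tg1) and 32 (Tg3 against Tg1), with 11 injury markers and 20 NF-kB and STAT3 targets in Tg2 against NC. With no filter the counts were 2 (Tg1 against WT) and 7 (Tg2 against Tg1), and with a mean CPM of 10 or more 54 (Tg2 against Tg1). Leaving out each library gave 0 to 25 (WT against NC), 16 to 255 (Tg1 against NC), 0 to 1878 (Tg2 against NC), 0 to 852 (Tg1 against WT), 0 to 2421 (Tg2 against WT), 0 to 1321 (Tg3 against WT), 0 to 117 (Tg2 against Tg1) and 3 to 115 (Tg3 against Tg1) genes. In Tg2 against NC it gave 0 to 10 injury markers, 0 to 2 protease inhibitors, 0 to 6 complement genes, 0 to 3 receptors and lipoprotein partners, 0 to 6 endoplasmic reticulum genes, 0 to 21 NF-kB and STAT3 targets and 0 to 8 apoptosis genes. The cause of these changes was not tested. Each library held at least 17115 counts of WFDC2 and 82950 of CLU, and no fit at a lower depth was made. Counts of the lists and single genes under these settings were added after the data were seen.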

Other observations

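The genes beside CLU and WFDC2 on the chromosome were also read, in the gene order of the RefSeq annotation of assembly Sscrofa11.1. Of the 12 nearest neighbours of CLU, 7 were tested. SCARA3, a scavenger receptor gene next to CLU, was higher in Tg2 than in NC by 0.49 on the log2 scale and was called (edgeR adjusted p = 0.0174). In that comparison 4.73% of all genes were called higher. PTK2B, which encodes a calcium-activated tyrosine kinase, had a log2 fold change of 0.48 in Tg2 and did not pass the test (edgeR adjusted p = 0.0606). EPHX2, a soluble epoxide hydrolase between them, had -0.08 (edgeR adjusted p = 0.228). The other tested neighbours of CLU were not called in Tg2, with 0.06 for STMN4, 0.02 for TRIM35, 0.20 for CCDC25 and -0.03 for PBK. Of the 12 neighbours of WFDC2 only PIGT was tested, and it had 0.05 in Tg1 (edgeR adjusted p = 0.692) and 0.02 in Tg2 (edgeR adjusted p = 0.809).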
